A study of Homo sapiens with 12 samples.

Results

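ALDH1A1, CAMK2D, OAT, TRIM72, HOPX, FCRLA, RIPOR2, UGT3A2, RIBC2 and HTR1F are 10 of the 58735 genes in the deposited table, picked by name for a high ratio of IKZF1 knockout (KO) to wild type (WT) values. The RNA came from SEM, an established leukaemia cell line of B cell precursor type with a KMT2A-AFF1 fusion. The 12 libraries comprised 3 of KO cells given 1 µM cytarabine (AraC) for 16 hours, 3 of untreated KO cells, 3 of WT cells given the same dose and 3 of untreated WT cells. The labels number the replicates without saying that they were separate cultures, so p-values cover only how far these libraries spread, and that spread may be technical. The labels name IKZF1 knockout cells, whose columns are headed homo, and give no number of lines or clones. Genotype therefore cannot be told apart from other differences between the KO and WT cells.

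Ikaros, the product of IKZF1, is a DNA-binding zinc finger protein needed for lymphoid development, whose sites share a GGGAA core and which can activate or repress genes. AraC is a cytidine analogue that is built into DNA and stalls replication. The 10 genes belong to no single pathway: they encode 3 enzymes, 3 signalling proteins, an Fc receptor-like protein of B cells, a homeodomain protein, a membrane repair protein and a protein of ciliary microtubules. Because the genes were chosen on the KO over WT ratio, their genotype difference is given as a description, and only the AraC effect in each genotype and the difference between those effects (the interaction) were tested.

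Values are FPKM, fragments scaled by the authors to gene length and library size. Reads assigned to genes were 22733932 in WT AraC replicate 1 and 16342979 to 16913784 in the other 11 libraries. In counts over all genes, KO AraC replicate 3 differed from replicates 1 and 2 by a chi-square of 6.43 and 7.95 per degree of freedom, against 2.52 between those, and untreated KO replicate 1 from replicates 2 and 3 by 4.12 and 4.26, against 2.24. In WT libraries such pairs gave 2.47 to 4.07. The B cell precursor markers CD79A, PAX5, EBF1, CD22, VPREB1 and IGLL1 were all above 20 FPKM in every library, and T cell markers CD3D, CD3G and CD2 were listed at 0, as were the erythroid HBB and the stromal DCN. The other 5 markers of that list ranged from DNTT and BLNK, at 0 in some library, to CD79B, at 5.51 to 8.18 FPKM. TRAC, a T cell receptor constant gene, had 67.5 to 80.1 FPKM and NKG7, an NK cell gene, 11.5 to 22.4 FPKM. The summed level of 4 NK cell markers, mostly NKG7, was 12.4 to 14.3 FPKM in KO AraC, 12.1 to 12.9 in untreated KO, 21.0 to 23.3 in WT AraC and 17.4 to 18.5 in untreated WT libraries, lower in every KO than in every WT library, and KLRD1 was listed at 0. The summed level of 11 B cell precursor markers was 529 to 541 FPKM in KO AraC, 757 to 769 in untreated KO, 328 to 355 in WT AraC and 509 to 525 in untreated WT libraries, and 7 of the 11 reached 1 FPKM in every library. The summed level of 6 myeloid markers was 2.51 to 3.77 FPKM in KO AraC, 1.48 to 1.96 in untreated KO, 5.76 to 7.16 in WT AraC and 2.86 to 4.24 in untreated WT libraries, and that of 4 stromal markers, nearly all COL1A1, 2.08 to 2.32, 0.959 to 1.34, 0.735 to 0.947 and 0.284 to 0.407 FPKM in the same groups. The part of these marker levels in the results below was not tested. In such bulk RNA, fewer expressing cells and less RNA per cell cannot be told apart. IKZF1 RNA was 14.24 to 14.98 FPKM in KO AraC, 20.5 to 21.5 in untreated KO, 14.2 to 15.3 in WT AraC and 22.1 to 22.6 in untreated WT libraries. KO and WT libraries overlapped with AraC, and without AraC the KO libraries were slightly lower, so IKZF1 RNA does not check the genotype labels.

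Over all 12 libraries the mean KO level exceeded the mean WT level by a ratio of 5.98 for ALDH1A1, 4.31 for TRIM72, 4.24 for CAMK2D, 3.99 for HOPX, 3.92 for OAT, 3.61 for RIBC2, 3.28 for FCRLA, 3.04 for RIPOR2, 3.03 for HTR1F and 2.94 for UGT3A2. These ratios are what the choice rests on. In all 10 genes the lowest KO library lay above the highest WT library, as in 5.78% of 13300 tested genes. By limma 30.2% of those genes differed between KO and WT with AraC (15.4% higher, 14.8% lower) and 27.5% without (14.9% higher, 12.6% lower). The choice was not exhaustive: 45 tested protein-coding genes had a ratio at least as high as that of UGT3A2, of which 35 are not among the 10. Of the 45, 12 had a mean KO level of at least 5 FPKM, and 9 of the 10 listed genes did. Just past UGT3A2 in the order of ratios came CD70, the CD27 ligand, with a ratio of 2.88.

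The sequences around some transcription starts are shown here because they bear on position. RIBC2 is shown for its shared start region with SMC1B, and OAT and CAMK2D because their AraC effects differed between KO and WT cells. RIPOR2 is shown because 1 of its several windows was the only one of the 16 to hold TGGGAA. Each runs from 250 bases before to 50 bases after a RefSeq start on build GRCh38.p14, 5′ to 3′ on the gene's strand. The windows are chr22:45413443-45413742 on the plus strand for RIBC2, chr10:124418874-124419173 on the minus strand for OAT, chr4:113761689-113761988 on the minus strand for CAMK2D and chr6:25042119-25042418 on the minus strand for RIPOR2. Capitals mark the 71 bases between SMC1B and RIBC2 in the first, and GGGAA or its reverse complement TTCCC in RIPOR2. Neither is present in the windows of OAT and CAMK2D, which are in lower case throughout.
RIBC2: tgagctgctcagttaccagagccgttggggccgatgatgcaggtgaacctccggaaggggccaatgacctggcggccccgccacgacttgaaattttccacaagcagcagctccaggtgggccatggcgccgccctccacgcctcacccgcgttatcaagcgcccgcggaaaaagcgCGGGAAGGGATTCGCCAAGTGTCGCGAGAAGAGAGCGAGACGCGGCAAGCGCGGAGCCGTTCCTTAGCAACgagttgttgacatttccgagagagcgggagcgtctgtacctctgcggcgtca
OAT: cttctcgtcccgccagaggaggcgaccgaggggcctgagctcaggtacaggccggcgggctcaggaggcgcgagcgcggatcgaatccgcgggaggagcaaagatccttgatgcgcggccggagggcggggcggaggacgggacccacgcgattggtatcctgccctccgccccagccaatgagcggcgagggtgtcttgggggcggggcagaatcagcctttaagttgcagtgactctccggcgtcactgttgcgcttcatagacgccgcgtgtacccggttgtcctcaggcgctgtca
CAMK2D: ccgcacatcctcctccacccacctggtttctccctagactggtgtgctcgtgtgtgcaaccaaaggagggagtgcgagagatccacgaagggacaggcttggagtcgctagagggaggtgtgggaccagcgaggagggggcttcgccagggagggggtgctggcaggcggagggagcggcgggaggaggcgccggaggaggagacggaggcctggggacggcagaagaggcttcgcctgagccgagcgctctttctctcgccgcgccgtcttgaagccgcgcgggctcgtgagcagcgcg
RIPOR2: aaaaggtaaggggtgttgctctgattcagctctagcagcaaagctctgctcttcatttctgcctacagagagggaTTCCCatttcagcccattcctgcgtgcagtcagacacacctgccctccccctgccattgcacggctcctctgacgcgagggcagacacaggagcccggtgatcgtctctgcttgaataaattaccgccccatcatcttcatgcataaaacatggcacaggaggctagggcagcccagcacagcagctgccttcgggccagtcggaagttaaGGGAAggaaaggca

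The RefSeq table held 16 such windows for the 10 genes. GGGAA, searched on both strands, was in 6 of the 16 windows, or 37.5%, against 65% of all 35116 windows of the same length. TGGGAA, which contains it, was in 1 of the 16, or 6.25%, against 24%. By gene, 4 of the 10 had a GGGAA match, or 40%, against 68.6% of all 27305 genes. The 4 were HTR1F, HOPX, RIPOR2 and RIBC2, of which HTR1F, HOPX and RIPOR2 had more than 1 window each. The HTR1F windows start at 87792456 and 87982326, ahead of the gene start of 87990696 given below. The ALDH1A1 window, from 72953004 to 72953303, lies inside the gene, away from its 5′ end at 73080442. The UGT3A2, FCRLA and HOPX windows, and all RIPOR2 windows but the printed one, also lie inside the spans given below. These matches describe letters in the windows and not binding. The 16 windows ranged from 40.3% to 75% G and C, around a median of 56.7% against 58.7% for all windows.

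**Figure D1:**
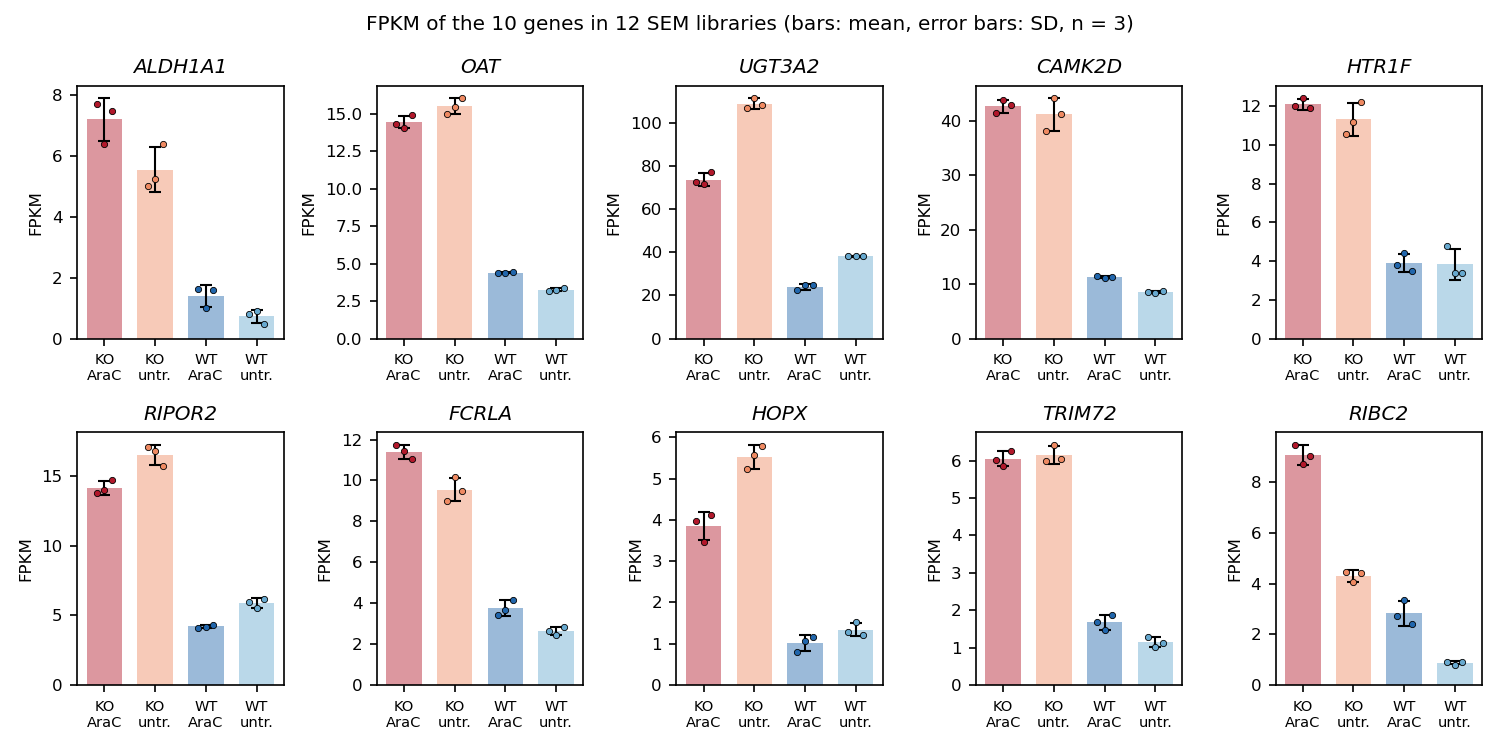
FPKM (vertical axes, each gene on its own linear scale) of the 10 genes in the 12 libraries, with KO AraC, untreated KO, WT AraC and untreated WT from left to right. Points are libraries, bars means and error bars SD (n = 3). Every KO point lies above every WT point, while the step between AraC and untreated differs from gene to gene, upward in both genotypes for RIBC2 and downward in both for UGT3A2.

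With AraC, 5 of the 10 genes changed in KO cells, 2 higher and 3 lower, where 44.4% of all tested genes were called, 19.8% higher and 24.7% lower (limma, Benjamini-Hochberg adjusted p below 0.05). In WT cells 9 changed, 6 higher and 3 lower, where 49.7% of all tested genes were called, 24.1% higher and 25.6% lower. The median log2 difference of the 10 was 0.01 in KO cells and 0.38 in WT cells, and that of all tested genes was -0.03 and -0.01. For the interaction 2 of the 10 were called, OAT and CAMK2D, both lower, where 2.69% of all tested genes were called, 0.887% higher and 1.8% lower. On the deposited scale limma called none higher, with 1 higher and 3 lower at an unadjusted p below 0.05. Limma-voom on recovered reads called 3 lower and 0 higher. Under quantile normalization RIPOR2 was called higher (0.36, limma adjusted p = 0.025) and CAMK2D was not called. Under TPM or plain read totals the median of all genes moved to 0.10 and 0.09 in KO and to 0.17 and 0.13 in WT cells, and AraC effects here are on the deposited scale. On that scale calls over all genes were higher against lower in 2628 against 3279 genes in KO cells (4074 against 1758 under TPM, 3991 against 1901 with plain totals) and in 3200 against 3406 in WT cells (5507 against 1648, and 5130 against 1952). For the interaction this split was 118 against 240 (90 against 464 under TPM), and for KO against WT with AraC 2047 against 1971 (1342 against 2998 under TPM, 1567 against 2761 with plain totals). Under TPM the AraC effect in WT cells was over 1.5 times larger for ALDH1A1 (1.02), CAMK2D (0.59), OAT (0.60), TRIM72 (0.67) and FCRLA (0.68), and over 1.5 times smaller for RIPOR2 (-0.28), and in KO cells it was 0.39 for FCRLA. Quantile normalization gave -0.33 for UGT3A2 in KO cells. Without KO AraC replicate 2 or 3 or without untreated KO replicate 1, 2 of the 10 were still called for the interaction. On leaving out any WT library, KO AraC replicate 1, or untreated KO replicate 2 or 3, only OAT stayed called. The rule does not say how it weighed treated and untreated columns, and the interaction uses the same libraries.

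OAT, the mitochondrial ornithine aminotransferase that links ornithine to glutamate and proline, had the clearest difference in AraC response. It lies on chromosome 10 from 124397303 to 124418976. OAT had 14.3, 14.1 and 14.9 FPKM in KO AraC libraries and 14.99, 15.5 and 16.0 in untreated KO libraries. It had 4.36, 4.396 and 4.404 FPKM in WT AraC libraries and 3.17, 3.21 and 3.39 in untreated WT libraries. All AraC libraries lay below the untreated ones in KO cells and above them in WT cells. The AraC effect was -0.10 log2 in KO cells (95% interval -0.19 to -0.01, limma adjusted p = 0.076) and 0.38 in WT cells (0.29 to 0.47, adjusted p = 2.4e-05). The interaction was -0.48 log2 ± 0.06 (SE, 95% interval -0.61 to -0.35, limma adjusted p = 0.0039), and the KO over WT ratio of means was 3.29 with AraC and 4.75 without. The sign in KO cells turned to 0.03 under TPM and 0.02 with plain read totals, while the interaction stayed called in all 22 alternatives, at -0.57 to -0.34.

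Of 16 other tested genes of ornithine, proline and polyamine metabolism, 1 was higher and 5 were lower in KO than in WT cells with AraC, and 0 were higher and 6 lower without by limma (2 higher and 7 lower at an unadjusted p below 0.05, and 0 and 7 with limma-voom). Their medians were -0.08 and -0.10, against 0.00 and 0.01 for all tested genes. Against untreated cells, AraC cells had 3 higher and 7 lower in KO, and 3 higher and 8 lower in WT (6 and 7 under TPM). ODC1, the rate-limiting enzyme of polyamine synthesis, averaged 165.8 ± 2.6 FPKM in KO AraC, 240.2 ± 5.9 in untreated KO, 169.2 ± 1.8 in WT AraC and 227.6 ± 2.2 in untreated WT libraries (SD, n = 3 each), and was not called between KO and WT (limma adjusted p = 0.50 with AraC and 0.079 without).

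ALDH1A1, the cytosolic aldehyde dehydrogenase that oxidises retinaldehyde to retinoic acid, is on chromosome 9 from 72900662 to 73080442. It had 7.71, 6.401 and 7.48 FPKM in KO AraC and 4.996, 5.24 and 6.395 in untreated KO libraries. In WT cells it had 1.64, 0.99 and 1.59 FPKM with AraC and 0.791, 0.889 and 0.493 without, the last from 35, 40 and 22 reads. Every AraC library lay above every untreated one of its genotype, though in KO cells the nearest were 6.401 with AraC and 6.395 FPKM without. With AraC it rose in WT cells by 0.64 log2 (95% interval 0.28 to 1.00, limma adjusted p = 0.0074). The rise in KO cells was 0.35 log2 and was not called (-0.01 to 0.71, adjusted p = 0.11), but was called with plain read totals (0.47, adjusted p = 0.035) and limma-voom (0.38, adjusted p = 0.010). The interaction was -0.28 with an interval from -0.79 to 0.23 (limma adjusted p = 0.56). With limma-voom the WT effect was 0.98 (adjusted p = 0.0069) and the interaction -0.60 (adjusted p = 0.31). The ratio of means was 5.11 with AraC and 7.66 without. Among 9 other tested genes of retinoid metabolism and retinoid receptors, 3 were higher and 2 lower in KO than in WT cells both with and without AraC.

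UGT3A2, a UDP glycosyltransferase that conjugates small molecules with sugars, was the most abundant of the 10 and is on chromosome 5 from 36035017 to 36071358. It had 72.7, 71.5 and 77.1 FPKM in KO AraC libraries and 107, 112 and 108 in untreated KO libraries. WT cells had 22.4, 25.0 and 24.6 FPKM with AraC and 38.5, 38.2 and 38.1 without. AraC libraries lay below the untreated ones in each genotype, and UGT3A2 fell by 0.56 log2 in KO cells and by 0.66 in WT cells (limma adjusted p = 3.1e-06 and 7.6e-07). The interaction was 0.10 (95% interval -0.03 to 0.24, limma adjusted p = 0.41), and the ratio of means was 3.07 with AraC and 2.85 without. Of the other UDP-sugar genes 4 were tested, and with AraC 3 were higher and 1 lower in KO than in WT cells, while without AraC 3 were higher. UGDH, which makes UDP-glucuronic acid, was one of them, at 12.5 ± 0.1 FPKM in KO AraC against 9.15 ± 0.26 in WT AraC libraries and 10.9 ± 0.5 in untreated KO against 9.36 ± 0.65 in untreated WT libraries (SD, n = 3 each).

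CAMK2D, the delta subunit of the calcium and calmodulin dependent kinase CaMKII, is on chromosome 4 from 113451032 to 113761927. It had 41.4, 43.8 and 42.8 FPKM in KO AraC libraries and 38.1, 44.1 and 41.3 in untreated KO libraries, which overlapped. The WT values were 11.5, 11.1 and 11.2 FPKM with AraC and 8.47, 8.32 and 8.69 without, with no overlap. The AraC effect was 0.05 log2 in KO cells (95% interval -0.05 to 0.16, limma adjusted p = 0.41) and 0.39 in WT cells (0.28 to 0.50, adjusted p = 6.1e-05). In KO cells it was called under TPM (0.19, adjusted p = 0.013), with plain read totals (0.17, adjusted p = 0.011) and under quantile normalization (0.18, adjusted p = 0.0094). The interaction was -0.34 ± 0.07 (SE, interval -0.49 to -0.19, limma adjusted p = 0.029), with a ratio of means of 3.78 with AraC and 4.85 without. That call was lost under quantile normalization (-0.23, adjusted p = 0.081) and on leaving out any WT library, KO AraC replicate 1, or untreated KO replicate 2 or 3 (-0.35 to -0.29, adjusted p = 0.053 to 0.071). Of 12 other tested calmodulin and calmodulin kinase genes, 4 were higher and 2 lower in KO than in WT cells with AraC, and 3 were higher and 4 lower without. With AraC, TPM and plain totals each gave 3 higher and 3 lower.

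HTR1F, a serotonin receptor that couples to inhibitory G proteins, is on chromosome 3 from 87990696 to 87993835. It had 11.9 to 12.4 FPKM in the 3 KO AraC and 10.6, 11.2 and 12.2 in untreated KO libraries, and 3.79, 4.42 and 3.51 in WT AraC and 4.76, 3.37 and 3.39 in untreated WT libraries. AraC and untreated libraries overlapped in each genotype. The AraC effect was 0.10 log2 in KO cells (95% interval -0.16 to 0.35) and 0.03 in WT cells (-0.22 to 0.28), and the interaction was 0.06 (-0.29 to 0.42), with limma adjusted p of 0.54, 0.84 and 0.88. Of the 10 genes HTR1F alone was called in neither genotype. Among 6 other tested genes of serotonin signalling 2 were higher and 2 lower in KO than in WT cells with AraC, and 1 was higher and 2 lower without. The adenylyl cyclase ADCY7 was among the lower ones, by -0.58 log2 with and -0.79 without AraC (limma adjusted p = 0.00025 and 2.4e-05).

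RIPOR2, which binds a small GTPase and limits its activity, is on chromosome 6 from 24804281 to 25042170. It had 13.8, 14.0 and 14.7 FPKM in KO AraC libraries and 17.1, 16.8 and 15.7 in untreated KO libraries. In WT cells it had 4.13, 4.18 and 4.33 FPKM with AraC and 5.94, 5.54 and 6.19 without. With AraC it fell by 0.22 log2 in KO cells and by 0.44 in WT cells (limma adjusted p = 0.0045 and 3.1e-05), with no overlap in either genotype. The KO call was lost under TPM (-0.09, adjusted p = 0.19) and with plain read totals (-0.10, adjusted p = 0.13). The interaction was 0.22 (95% interval 0.07 to 0.38, limma adjusted p = 0.12), called under quantile normalization (0.36, adjusted p = 0.025), and the ratio of means was 3.37 with AraC and 2.81 without.

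FCRLA, an Fc receptor-like protein that stays inside B cells, is on chromosome 1 from 161706972 to 161714352. It had 11.7, 11.5 and 11.1 FPKM in KO AraC, 9.002, 10.2 and 9.50 in untreated KO, 3.41, 3.69 and 4.17 in WT AraC and 2.64, 2.43 and 2.82 in untreated WT libraries. Every AraC library lay above every untreated library of its genotype. FCRLA rose by 0.25 log2 in KO cells and by 0.44 in WT cells (limma adjusted p = 0.018 and 0.00045), with an interaction of -0.19 (95% interval -0.42 to 0.03, adjusted p = 0.35) and a ratio of means of 3.04 with AraC and 3.63 without. The KO call was lost without KO AraC replicate 1 (0.23, adjusted p = 0.058) or untreated KO replicate 1 (0.21, adjusted p = 0.064). Of 4 other tested Fc receptor genes 2 were lower in KO than in WT cells with AraC and 2 without. FCMR, the Fc receptor for IgM, was lower by -0.53 and -0.57 log2 (limma adjusted p = 0.0055 and 0.0034).

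HOPX, a small homeodomain protein that does not bind DNA itself and acts with SRF and histone deacetylases, is on chromosome 4 from 56647988 to 56681899. It had 3.98, 3.47 and 4.12 FPKM in KO AraC and 5.22, 5.58 and 5.80 in untreated KO libraries, and 0.799, 1.07 and 1.16 in WT AraC and 1.29, 1.52 and 1.22 in untreated WT libraries. With AraC it fell by 0.47 log2 in KO cells and by 0.29 in WT cells (limma adjusted p = 0.0038 and 0.040). The WT call was lost in 12 of 22 alternatives, among them TPM, plain read totals and no filter (-0.20, -0.18 and -0.29, adjusted p = 0.20, 0.16 and 0.084), and without WT AraC replicate 1 or 2 or untreated WT replicate 1 or 2 (-0.32 to -0.18, adjusted p = 0.055 to 0.15). The other 5 losses, at a pseudocount of 1, a filter of 5 FPKM, or without KO AraC replicate 1 or untreated KO replicate 2 or 3, had adjusted p of 0.050 to 0.055. With limma-voom the WT effect was -0.46 (adjusted p = 0.014) and the interaction -0.07 (adjusted p = 0.88). Every AraC library lay below every untreated library of its genotype. The interaction was -0.18 (95% interval -0.51 to 0.15, limma adjusted p = 0.57), and the ratio of means was 3.82 with AraC and 4.13 without. Of 8 tested partner genes of HOPX, 0 were higher and 1 was lower in KO than in WT cells with AraC by limma. Of all tested genes 15.4% were higher and 14.8% lower. TPM gave 0 higher and 2 lower, and quantile normalization 1 and 1. Without AraC 0 were called by limma, with 2 higher and 0 lower at an unadjusted p below 0.05, and 1 and 0 with limma-voom.

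TRIM72, also called MG53, is known from muscle, where it helps to reseal damaged plasma membrane, and is on chromosome 16 from 31214021 to 31231537. It had 6.02, 5.85 and 6.26 FPKM in KO AraC and 5.98, 6.43 and 6.04 in untreated KO libraries, which overlapped. In WT cells it had 1.69, 1.47 and 1.87 FPKM with AraC and 1.30, 1.02 and 1.13 without, with no overlap. The AraC effect was -0.02 log2 in KO cells (95% interval -0.20 to 0.16, limma adjusted p = 0.85) and 0.40 in WT cells (0.22 to 0.58, adjusted p = 0.0020). The interaction of -0.42 (-0.68 to -0.17) did not pass (limma adjusted p = 0.088), but was called at -0.57 under both TPM (adjusted p = 0.042) and limma-voom (adjusted p = 0.017). The ratio of means was 3.60 with AraC and 5.35 without. Of 10 other tested membrane repair genes 4 were higher and 1 lower in KO than in WT cells with AraC, and 4 were higher and 2 lower without. With AraC the lower genes were 3 under TPM, plain totals and quantile normalization. S100A10, an annexin partner, was among the higher ones, at 149 ± 8 FPKM in KO AraC against 93.0 ± 4.3 in WT AraC and 178 ± 4 in untreated KO against 112 ± 6 in untreated WT libraries (SD, n = 3 each).

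RIBC2, a protein of the doublet microtubules of cilia, rose more than any other of the 10 with AraC. It is on chromosome 22 from 45413691 to 45432496. It had 9.48, 8.70 and 9.02 FPKM in KO AraC and 4.46, 4.04 and 4.43 in untreated KO libraries. In WT cells it had 2.71, 3.36 and 2.41 FPKM with AraC, from 77 to 120 reads, and 0.923, 0.802 and 0.914 without, from 23 to 26 reads. The rise was 0.99 log2 in KO cells (95% interval 0.78 to 1.20) and 1.26 in WT cells (1.05 to 1.47), with limma adjusted p of 1.1e-05 and 1.7e-06. The interaction was -0.27 (-0.56 to 0.02, limma adjusted p = 0.32), and it was -0.58 with limma-voom (adjusted p = 0.24). The ratio of means was 3.21 with AraC and 4.90 without. Of 3 other tested axonemal genes 2 rose with AraC in each genotype, CFAP20 and MNS1. The CFAP20 call in KO cells held in 16 of 22 alternatives (limma adjusted p up to 0.11). Between KO and WT cells 0 of the 3 were called with AraC, and without AraC 0 were higher and 1 was lower, MNS1. These KO against WT counts were the same at an unadjusted p below 0.05 and with limma-voom. MNS1, a protein of axonemes and meiosis, averaged 6.34 ± 0.55 FPKM in KO AraC, 1.56 ± 0.10 in untreated KO, 6.23 ± 0.61 in WT AraC and 2.45 ± 0.17 in untreated WT libraries (SD, n = 3 each), with an interaction of 0.54 (limma adjusted p = 0.037) that 13 of 22 alternatives ended (adjusted p = 0.052 to 0.097).

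**Figure D2:**
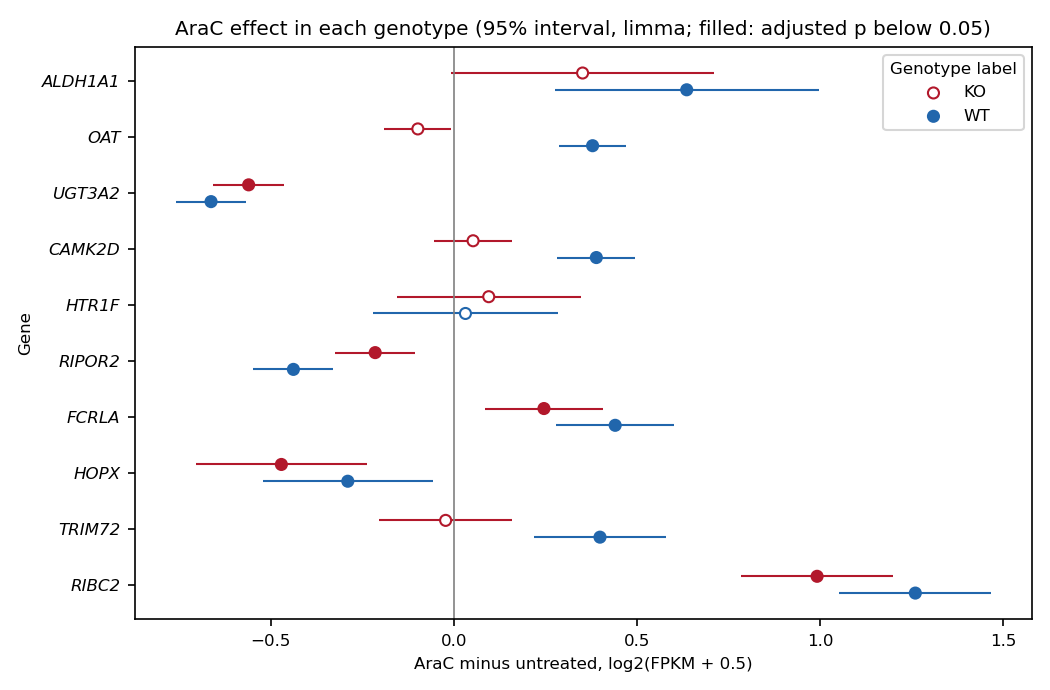
AraC effect on each gene in KO (red, upper) and WT (blue, lower) cells, as AraC minus untreated on the log2(FPKM + 0.5) scale, with 95% intervals from limma. Filled points passed an adjusted p of 0.05: 5 in KO and 9 in WT cells, from -0.66 for UGT3A2 in WT to 1.26 for RIBC2 in WT.

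**Figure D3:**
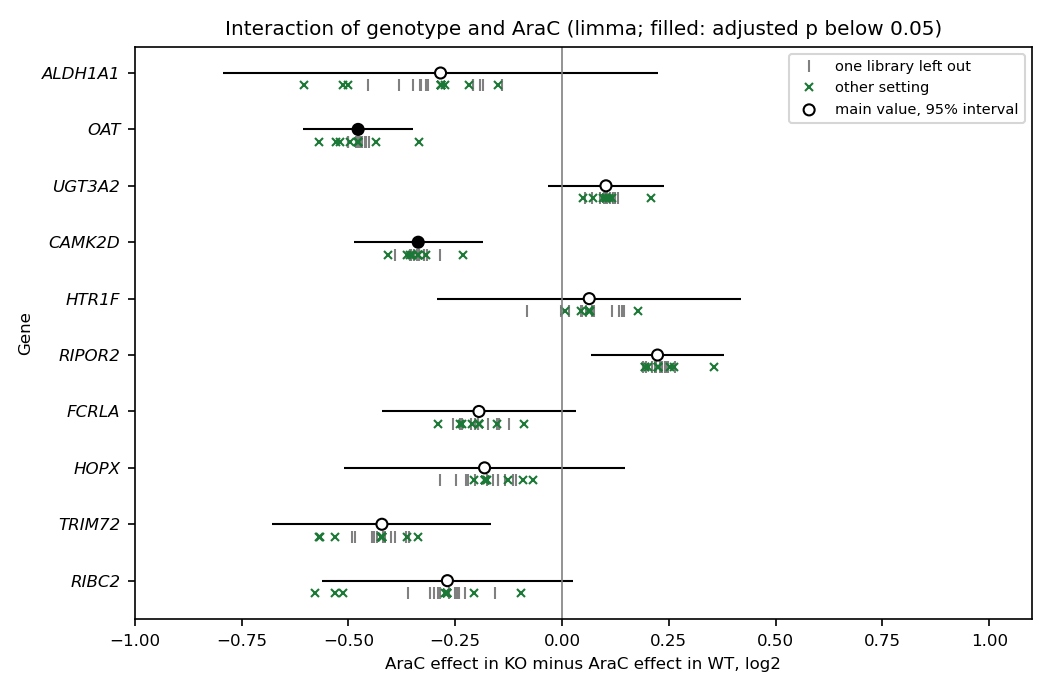
KO minus WT difference of the AraC effects (log2, horizontal axis) for each gene, with its 95% interval from limma, and below it the values under other settings (crosses) and with a library left out (ticks). OAT and CAMK2D (filled) passed an adjusted p of 0.05 at -0.48 and -0.34, and the ticks of HTR1F lie on both sides of 0.

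The estimated interaction was below 0 in 7 of the 10 genes, a smaller log2 KO over WT difference with AraC. It was above 0 in RIPOR2, UGT3A2 and HTR1F. Of the 7 only OAT and CAMK2D were called, and the intervals of ALDH1A1, HOPX, FCRLA and RIBC2 included 0. The median interaction was -0.23 for the 10 genes and -0.003 for all tested genes (-0.06 under TPM). The ratio of FPKM means moved in the direction of the estimated interaction in each of the 10. The fitted difference was 1.61 log2 with AraC and 2.09 without for OAT, and 1.87 and 2.21 for CAMK2D, with SE of 0.04 and 0.05. As the genes were chosen for a high KO over WT ratio, a KO level above the WT level with AraC is no finding. Across the 10 genes the ratio with AraC was 3.04 for FCRLA at the lowest and 5.11 for ALDH1A1 at the highest. Without AraC it ran from 2.81 for RIPOR2 to 7.66 for ALDH1A1.

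**Figure D4:**
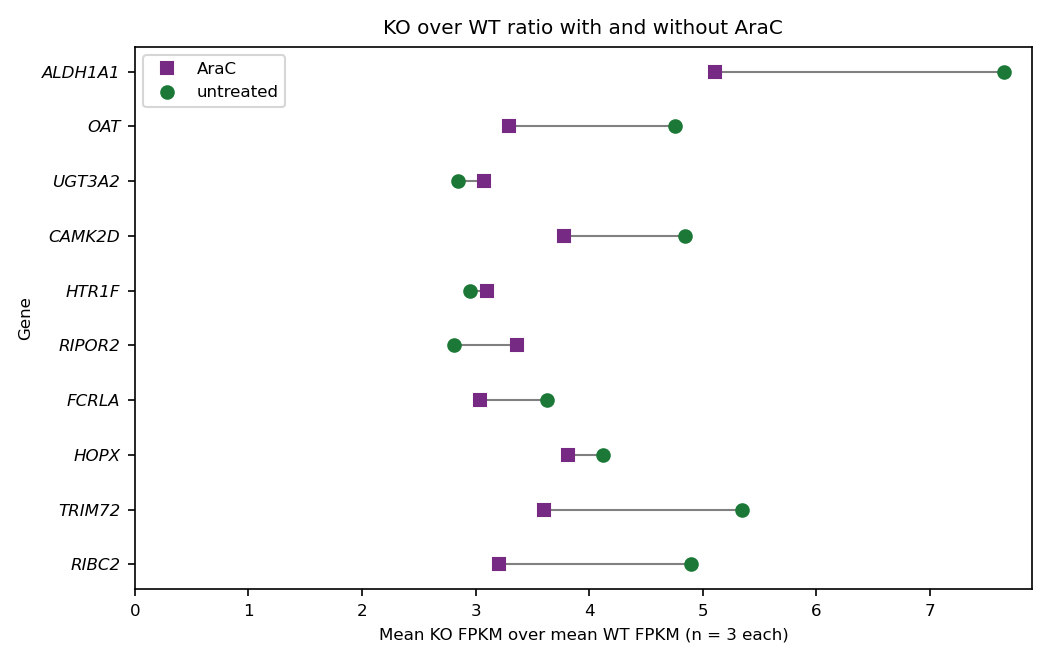
Mean KO FPKM over mean WT FPKM (linear axis, n = 3 libraries each) for each gene with AraC (squares) and untreated (circles). Squares lie left of circles for 7 genes, most for ALDH1A1 (5.11 with AraC and 7.66 untreated), and right of them for RIPOR2, UGT3A2 and HTR1F.

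Position was not used in the choice. The table holds 76 other genes with any part within 100 kb of the 10, of which 22 passed the filter of 1 FPKM in at least 3 libraries. With AraC 6 of the 22 were higher and 2 lower in KO than in WT cells, against 15.4% and 14.8% of all tested genes. Without AraC 5 were higher and 0 lower by limma (5 and 1 at an unadjusted p below 0.05, and 5 and 0 with limma-voom). Of all tested genes 14.9% were higher and 12.6% lower without AraC. Quantile normalization gave 3 higher and 0 lower without AraC, and 3 to 6 were called across the alternatives. Under TPM the counts with AraC were 4 and 4. Their median log2 difference was 0.10 with AraC and 0.08 without. Without SMC1B, which passed the filter through its KO AraC libraries alone, 5 of 21 were higher and 2 lower with AraC and 4 were higher without. Among these 21 the highest difference was 0.54 in each case, for PYCARD-AS1 with AraC (limma adjusted p = 0.0096) and without AraC for PPIAP29, which did not pass (adjusted p = 0.19). PYCARD, an inflammasome adaptor 10571 bases from TRIM72, was higher by 0.31 with AraC and 0.38 without (limma adjusted p = 0.0022 and 0.00051). No neighbour of ALDH1A1, CAMK2D or HOPX passed the filter.

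SMC1B, a meiotic cohesin subunit, runs away from RIBC2 on the other strand of chromosome 22, from 45344063 to 45413619, so that the starts of the pair lie in the window printed above. SMC1B had 1.82, 1.84 and 2.05 FPKM in KO AraC libraries and 0.759, 0.886 and 0.863 in untreated KO libraries. WT libraries had 0.492, 0.464 and 0.360 FPKM with AraC and 0.0909, 0.0893 and 0.240 without, the last from 6, 6 and 16 reads. From high to low the groups ran KO AraC, untreated KO, WT AraC and untreated WT, as for RIBC2, and no group overlapped the next in either gene. For RIBC2 the place of KO above WT in that order was set by the choice. The log2 KO over WT difference was 1.36 with AraC and 1.07 without, and the difference of AraC from untreated was 0.85 in KO cells and 0.56 in WT cells. As SMC1B passed the filter through its KO AraC libraries alone, it had to be high there, and these values are a description with no test. All its WT libraries lay below the pseudocount of 0.5, and the difference without AraC was 0.69 at a pseudocount of 1 and 2.66 with limma-voom. As no source used here gives the strand setting of the read counting, reads of overlapping genes on opposite strands cannot be told apart. Of 9 genes that overlap a listed gene, 1 exceeded 0.5 FPKM in any library, the pseudogene PPIAP29 inside RIPOR2, with 10 to 34 reads against 707 to 2582 for RIPOR2.

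**Figure D5:**
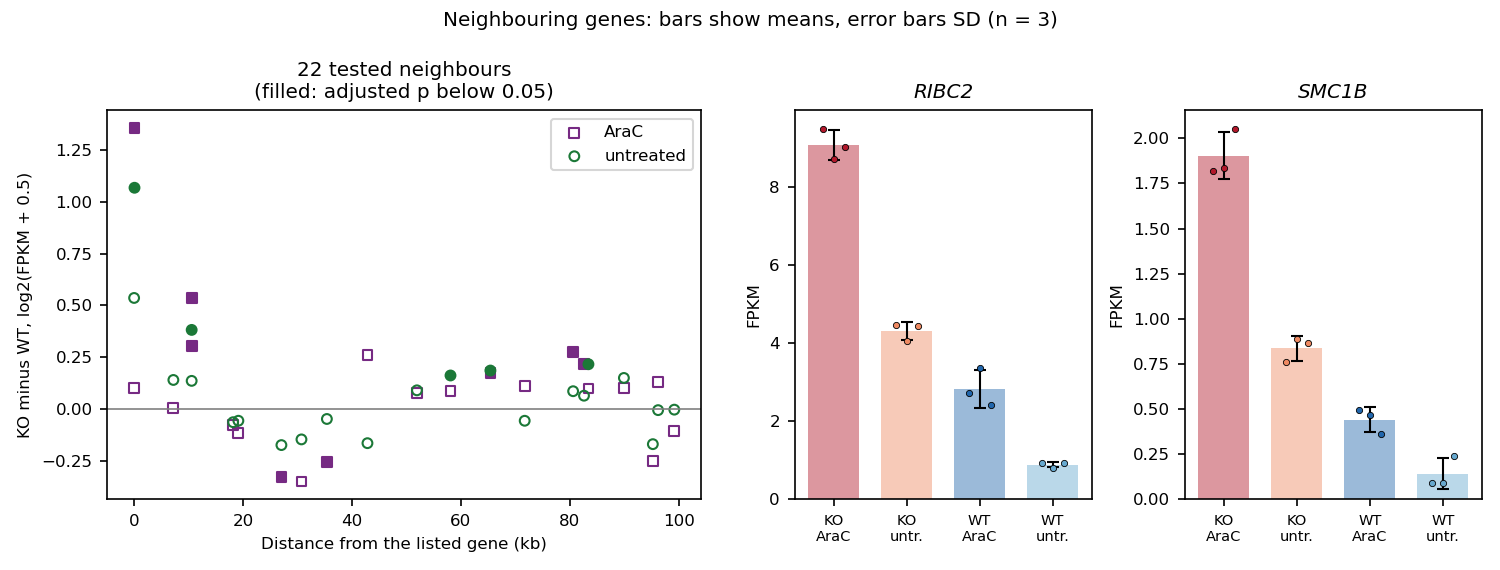
Left, KO minus WT on the log2(FPKM + 0.5) scale for the 22 tested neighbours by their distance from the listed gene in kb, with AraC (squares) and untreated (circles), filled where the limma adjusted p was below 0.05. Right, FPKM of RIBC2 and SMC1B by group (points libraries, bars means, error bars SD, n = 3). Both genes fall in the same order, though RIBC2 was chosen for KO above WT. SMC1B lies at 1.36 and 1.07 in the left panel. Its filled points there are no test because it passed the filter through KO AraC alone.

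The tested genes most like the mean profile of the 10, among 7478 protein-coding genes that reached 5 FPKM in a group, were MS4A1, PER3, ARHGAP32, ITGB7 and FNBP1, with Pearson r from 0.992 to 0.997 over the 12 libraries, which all share the genotype split. MS4A1, which encodes the B cell antigen CD20, averaged 7.07 FPKM in KO AraC, 6.75 in untreated KO, 0.572 in WT AraC and 0.262 in untreated WT libraries. PER3, a circadian clock gene, averaged 14.3, 12.3, 2.66 and 1.64 FPKM in the same order of groups. Of the 10 themselves, r with that mean was 0.998 for CAMK2D at the highest and 0.863 for RIBC2 at the lowest. That mean includes each gene itself and carries the genotype split that the 10 were chosen for, so these r values are a description only.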

How the data were processed

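RNA of 12 SEM libraries was analysed from 1 deposited table of FPKM values, with scaling by the authors for gene length and library size. Per the submitters' processing notes, fastp, HISAT2 2.0.5 and featureCounts 1.5.0-p3 were used with hg38 and GRCh38; no source used here gives their settings, the strandedness or the library preparation. Multiplying FPKM by the table's gene length gave whole reads, within 0.001, for 100% of values above 0.

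Genes with at least 1 FPKM in at least 3 libraries (13300, all 10 listed genes among them) entered 1 limma model (3.58.1, R 4.3.3) on log2(FPKM + 0.5), with 4 group means, 8 residual degrees of freedom and a variance trend. All tests are two-sided, adjusted over all tested genes (Benjamini-Hochberg, 0.05), and this scale understates changes of low genes. The procedure was also run on simulated reads with the same spread setting for all genes and libraries. The replicates here were uneven, so that run is not used as support. The 10 genes, the pathway lists and the tests were chosen with earlier results of these data known. Named besides the 10 were genes within 100 kb, up to 3 per pathway list with the highest mean FPKM, and the 5 most similar genes. Sequences come from RefSeq, GRCh38.p14. Alternatives covered pseudocount, filter, scaling, variance model, limma-voom, a replicate block and leaving out each library. A pathway list and a marker gene are not reported here.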

Additional observations from a re-analysis of the deposited data

Results flagged for a closer look

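The AraC effect differed between KO and WT cells, by the limma interaction test, for 2 of the 10 genes, against 2.69% of all tested genes: OAT at -0.48 log2 (adjusted p = 0.0039) and CAMK2D at -0.34 (adjusted p = 0.029). The CAMK2D call was lost in 10 of 22 alternatives (adjusted p = 0.053 to 0.081), and the OAT call in 0 of 22. Among the other genes named, MNS1 differed in the opposite direction, at 0.54 (limma adjusted p = 0.037, and up to 0.097 in the alternatives, of which 13 of 22 ended the call).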

How the results depend on the processing

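The number of genes called for the interaction, 358, was 554 under TPM, 548 with plain read totals, 625 with limma-voom and 238 with a replicate block, and 129 to 339 on leaving out a library. The number of listed genes called for it was 1 to 2 on leaving out a library. Among effects not called on the deposited scale, the AraC effect in KO cells turned to 0.031 and 0.021 for OAT and to 0.107 and 0.092 for TRIM72 under TPM and plain read totals; on leaving out a library it ran from -0.00098 to 0.103 for CAMK2D (0.186 under TPM, 0.175 with plain read totals and 0.177 under quantile normalization, all called) and from -0.046 to 0.0076 for TRIM72. For HTR1F the AraC effect in WT cells was -0.040 under quantile normalization and ran from -0.051 to 0.178 on leaving out a library, and its interaction from -0.083 to 0.146. The cause was not tested. Same-numbered libraries of different groups showed little shared deviation (r from -0.05 to 0.12, over 0.1 in 1 of 18 pairs). Pairs of other numbers had r from -0.10 to 0.11, over 0.1 in 1 of 36. With the replicate block 2 listed genes remained called for the interaction, 5 in KO and 9 in WT cells. Low WT reads limit ALDH1A1, RIBC2 and SMC1B. Of 660 values of the 10 genes' tests under alternatives, 614 kept direction and side of the threshold.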
